A study of Mus musculus with 6 samples.

Results

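The nuclear factor kappa B (NF-kB) pathway and its adhesion molecules were followed in mouse liver through 10 genes, of which 9 were measured among 22180 genes in all. They were chosen by symbol as transcription factor subunits, inhibitors, cytokines and endothelial adhesion molecules. Nfkb1 had no probe set with that symbol in the array annotation and was not analysed here. Each of the other 9 had a single probe set. Total RNA came from livers of male C57BL/6N mice aged 2 months, with 3 arrays labelled cGK1-KO and 3 labelled wild type. The cGK1-KO mice lacked cGMP-dependent protein kinase 1, encoded by Prkg1, except in smooth muscle, where it was restored; which promoter drives this rescue is not stated. The series description calls the comparison mice controls, and the groups are named knockout and control below. The labels do not say that the 3 samples of a group were separate animals, so p-values measure the spread between these samples.

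NF-kB is a family of dimeric transcription factors. In resting cells most dimers are held in the cytoplasm by inhibitor proteins such as I kappa B alpha, and signals from tumour necrosis factor, interleukin 1 or Toll-like receptors lead to destruction of the inhibitor and entry of the dimers into the nucleus. Targets include inflammatory cytokines, the genes of the inhibitors themselves, which close a negative feedback loop, and the endothelial proteins that let leukocytes bind the vessel wall. In liver the pathway is known in Kupffer cells, the resident macrophages, in sinusoidal endothelium, in stellate cells and in hepatocytes.

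All values are log2 expression made by the robust multi-array average (RMA), and a difference is knockout minus control on that scale. Array medians lay between 3.11 and 3.16, and probe sets with a mean under 3.11, the median of all probe sets, are called dim. Across genes, which are not independent replicates, arrays correlated at 0.978 to 0.983 within the knockout group and at 0.989 to 0.990 within the control group. Knockout and control arrays correlated with each other at 0.978 to 0.983, the same range as within the knockout group. The mean of 11 hepatocyte markers lay between 11.11 and 11.17 on the knockout arrays and between 11.21 and 11.31 on the control arrays, and none of them was dim. Prkg1 lay at 3.31, 3.04 and 3.22 on the knockout arrays, against 3.32, 2.97 and 2.95 on the control arrays, a difference of 0.11 (SE 0.15). With a signal this close to the dim limit, and with a rescue that may add transcript, Prkg1 does not check the genotype labels.

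NF-kB dimers are known to bind short kappa B elements in the DNA near their target genes. Upstream sequences of 3 genes described below are printed to show where runs of such letters occur: Icam1 and Tnf, whose knockout values lay above all control values, and Nfkbia, the measured gene with the lowest difference. They are the 250 bases before the annotated start in RefSeq, build GRCm38.p6, for Icam1 chr9:21015690-21015939 (plus strand), for Nfkbia chr12:55492648-55492897 (minus strand) and for Tnf chr17:35202008-35202257 (minus strand). Each is written 5′ to 3′ along the gene. Capitals mark matches, on either strand, to the 9-base pattern GGNNNTTCC, where N is any base.

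Icam1: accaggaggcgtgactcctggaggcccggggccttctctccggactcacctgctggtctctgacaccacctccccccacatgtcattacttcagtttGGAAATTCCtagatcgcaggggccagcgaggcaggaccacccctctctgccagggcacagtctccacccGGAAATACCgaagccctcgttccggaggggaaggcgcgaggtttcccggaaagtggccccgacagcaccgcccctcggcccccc

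Nfkbia: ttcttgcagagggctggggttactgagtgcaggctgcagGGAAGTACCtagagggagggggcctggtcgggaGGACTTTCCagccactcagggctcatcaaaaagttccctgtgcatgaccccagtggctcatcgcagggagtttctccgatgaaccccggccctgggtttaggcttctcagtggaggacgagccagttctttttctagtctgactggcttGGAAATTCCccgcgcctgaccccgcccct

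Tnf: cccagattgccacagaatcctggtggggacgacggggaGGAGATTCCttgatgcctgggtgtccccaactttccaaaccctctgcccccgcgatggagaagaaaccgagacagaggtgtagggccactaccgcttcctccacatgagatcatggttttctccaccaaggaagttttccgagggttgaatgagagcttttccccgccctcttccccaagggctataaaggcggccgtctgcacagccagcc

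Icam1 held GGAAATTCC at 153 to 145 bases before the start, which matches on both strands, and GGAAATACC at 84 to 76 bases, which matches on the opposite strand. Nfkbia held the same GGAAATTCC much nearer its start, at 29 to 21 bases, with GGACTTTCC at 178 to 170 bases and GGAAGTACC, on the opposite strand, at 211 to 203 bases. Tnf held GGAGATTCC at 212 to 204 bases. RefSeq upstream windows were found for 7 of the measured genes, 10 windows in all because Nfkb2 and Tnfaip3 have several starts. The pattern occurred in 8 of the 10 windows, while 15.7% of the 32851 windows of all genes held it. By gene it occurred in 5 of the 7, Rela and Il1b being those without it, and no share by gene was computed over all genes. The members were chosen for their role in this pathway, so no conclusion is drawn from the higher share. A match is a run of letters and not a measured binding site. Icam1 and Nfkbia shared the GGAAATTCC run, while the signs of their expression differences were opposite.

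No measured gene of the group passed an adjusted p of 0.05 in limma, and none of all genes tested did either (0 of 22180, 0%), the smallest adjusted p over all genes being 0.0613. The adhesion molecule gene Icam1, 1.50-fold higher in the knockout, had the widest gap between the groups, and Tnf, 1.19-fold higher, was the only other gene with a gap. Vcam1 lay 1.36-fold higher with overlapping groups. Nfkbia, the gene of I kappa B alpha, lay 1.34-fold lower. The subunit genes and Tnfaip3 differed by 0.17 or less on the log2 scale. At an unadjusted p under 0.05, 1 of the 9 genes was found, Icam1, which is 11.1% of them, where 10.5% of all tested genes (2334) lay there. Vcam1 joined it under 3 of the 14 alternatives and Nfkbia, as lower, under 2. Knockout values lay entirely outside the control range in 2 of 9 genes, Icam1 and Tnf, or 22.2%, against 16.7% of all genes. In both they lay above it, as in 7.61% of all genes, and 0 of the 9 lay entirely below, where 9.14% of all genes did. Differences were positive in 7 of the 9, where 50.19% of all genes had positive differences. Among the positive ones, Nfkb2, Relb and Tnfaip3 changed sign when single arrays were left out. The median difference of the 9 genes was 0.06, against 0.00 over all genes. These shares rest on 9 genes, 2 of which are dim.

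**Figure D1:**
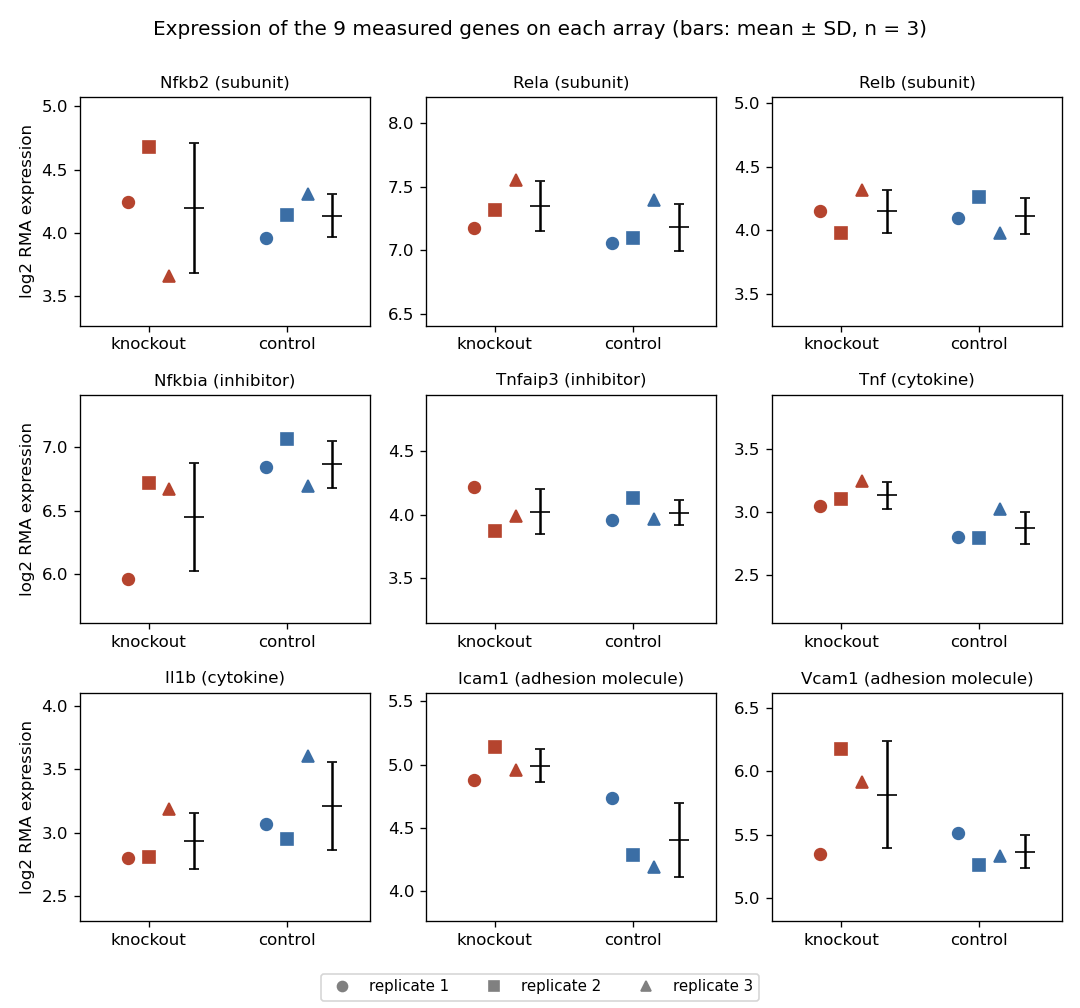
Log2 RMA expression (vertical axes, each spanning the same range) of the 9 measured genes on the 3 knockout arrays (left) and the 3 control arrays (right); marker shape gives the replicate number and bars the mean ± SD (n = 3). Groups are separate for Icam1 and Tnf and overlap in the other 7 genes.

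Adhesion molecules came nearest to a difference. Icam1 encodes an immunoglobulin-family protein on endothelium and other cells that binds the beta 2 integrins of leukocytes. Its expression was 4.88, 5.14 and 4.96 on the knockout arrays, against 4.73, 4.29 and 4.19 on the control arrays. Every knockout value was above every control value, and the nearest pair, knockout replicate 1 and control replicate 1, lay 0.15 apart. Group means were 4.99 ± 0.13 in the knockout and 4.40 ± 0.29 in the control (SD, n = 3 each). The log2 difference was 0.59 (SE 0.17, 95% confidence interval 0.21 to 0.97, a ratio of 1.15 to 1.96), with a limma p of 0.00673 and an adjusted p of 0.311. Icam1 was the gene with the 480th smallest p of all tested genes.

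Vcam1 encodes the endothelial partner of integrin alpha 4 beta 1, and is also made by Kupffer cells and activated stellate cells. Its expression was 5.35, 6.18 and 5.92 on the knockout arrays, against 5.51, 5.26 and 5.33 on the control arrays. Knockout replicates 2 and 3 lay above all controls, while knockout replicate 1 lay inside the control range. Vcam1 averaged 5.82 ± 0.42 in the knockout and 5.37 ± 0.13 in the control (SD, n = 3 each), a difference of 0.45 (SE 0.21, interval -0.02 to 0.91, limma adjusted p = 0.489). Its size hung on single arrays, being 0.68 without knockout replicate 1 (limma unadjusted p = 0.00255, adjusted p = 0.343) and 0.27 without knockout replicate 2 (unadjusted p = 0.207). The unadjusted p was also under 0.05 with further quantile normalization (0.0272) and with an intensity trend (0.0455).

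Of the inhibitor genes, Nfkbia had the larger difference. Nfkbia lay at 5.96, 6.72 and 6.67 on the knockout arrays, against 6.84, 7.06 and 6.69 on the control arrays. Knockout replicate 1 was far below the rest, and knockout replicate 2 lay just above control replicate 3, so the groups overlapped. The means were 6.45 ± 0.43 in the knockout and 6.87 ± 0.19 in the control (SD, n = 3 each), and the difference was -0.42 (SE 0.21, interval -0.90 to 0.06, limma adjusted p = 0.528). Leaving out knockout replicate 1 gave an Nfkbia difference of -0.17, and leaving out knockout replicate 2 gave -0.55, with an unadjusted p of 0.04. Leaving out knockout replicate 3 gave -0.53, with an unadjusted p of 0.0482. Tnfaip3 encodes A20, a ubiquitin-editing enzyme that stops signalling upstream of the inhibitor proteins. It lay at 4.22, 3.87 and 3.99 on the knockout arrays, against 3.96, 4.13 and 3.97 on the control arrays, with full overlap. Its difference was 0.01 (SE 0.14, interval -0.31 to 0.33), which leaves ratios of 0.807 to 1.25 within the interval.

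The transcription factor subunits overlapped between the groups. Rela encodes p65, the activating partner of the most common dimer. Rela lay at 7.17, 7.32 and 7.56 on the knockout arrays, against 7.05, 7.09 and 7.39 on the control arrays, with a difference of 0.17 (SE 0.16, interval -0.18 to 0.52, limma adjusted p = 0.740). On both sides replicate 3 was the highest. Nfkb2 encodes p100, precursor of the p52 subunit of the non-canonical pathway, and Relb encodes its usual partner. Nfkb2 lay at 4.25, 4.68 and 3.66 on the knockout arrays, against 3.96, 4.14 and 4.31 on the control arrays. The knockout arrays held both its highest and its lowest value, their SD being 0.51 against 0.17 in the control arrays, and the difference was 0.06 (SE 0.24, interval -0.48 to 0.60). Relb lay at 4.15, 3.98 and 4.32 on the knockout arrays, against 4.09, 4.27 and 3.98 on the control arrays, a difference of 0.04 (SE 0.15, interval -0.29 to 0.36). The signs for Nfkb2, Relb and Tnfaip3 turned when single arrays were left out, so no direction is given for them.

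Both cytokine genes were dim. Tnf, encoding tumour necrosis factor, lay at 3.04, 3.10 and 3.24 on the knockout arrays, against 2.80, 2.80 and 3.02 on the control arrays. All knockout values were above all control values, but the nearest pair lay only 0.02 apart. The difference was 0.26 (SE 0.13, interval -0.04 to 0.56, limma adjusted p = 0.536). Il1b, encoding interleukin 1 beta, lay at 2.80, 2.81 and 3.19 on the knockout arrays, against 3.07, 2.95 and 3.60 on the control arrays. Replicate 3 was highest on both sides and the groups overlapped, with a difference of -0.27 (SE 0.20, interval -0.72 to 0.17, limma adjusted p = 0.657). Without control replicate 3 the Il1b difference was -0.08. At means of 3.002 for Tnf and 3.07 for Il1b, both under the dim limit, the sizes of these differences are uncertain.

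**Figure D2:**
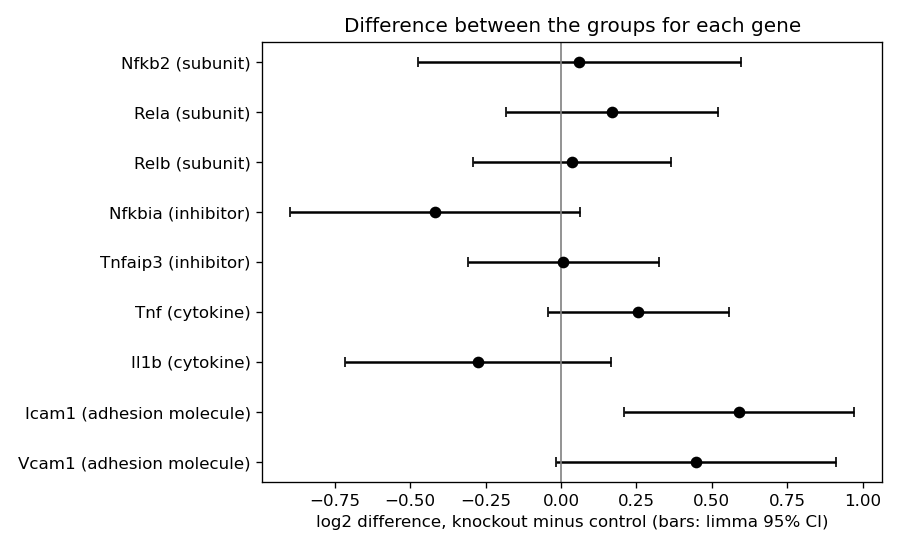
Log2 difference, knockout minus control (horizontal axis), of the 9 genes in the order of their roles; points are limma estimates and bars 95% confidence intervals from 3 arrays per group. The interval for Icam1, 0.21 to 0.97, lies above 0, and the other 8 include 0.

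**Figure D3:**
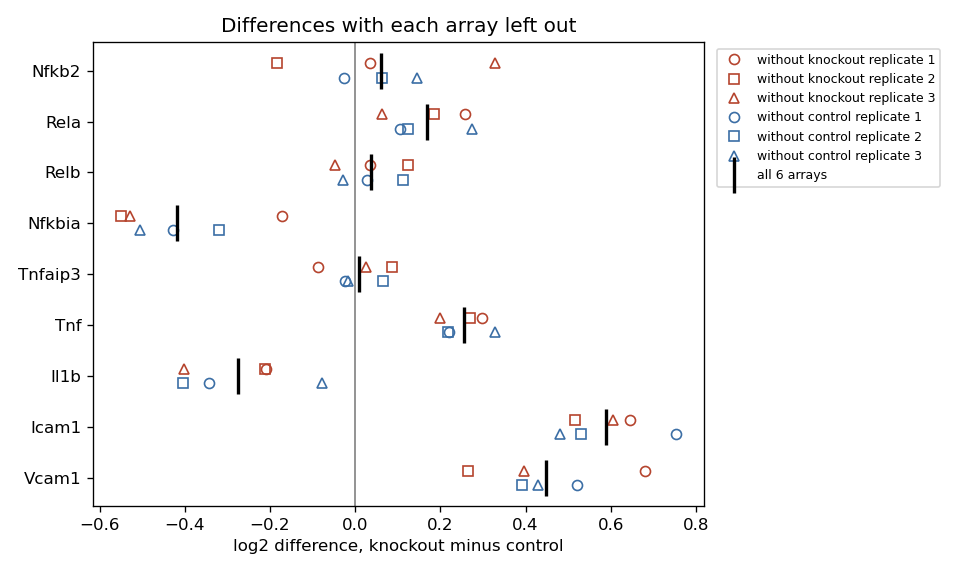
Log2 difference, knockout minus control (horizontal axis), of each gene with 1 of the 6 arrays left out (open symbols) and with all 6 (black bars). Icam1 stays between 0.48 and 0.75, while Nfkbia spans -0.55 to -0.17 and Vcam1 0.27 to 0.68.

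The genes that bind, feed or restrain this pathway were read from 3 lists, of signalling genes, of other target genes and of other adhesion molecules. In them 44, 39 and 38 genes were measured. None of their genes passed an adjusted p of 0.05 in limma. At an unadjusted p under 0.05 lay 15 higher and 4 lower genes over the 3 lists. Of all genes, 5.06% lay higher there, 5.46% lower and 10.5% in either direction. The lists were chosen with earlier results of these data known, so no conclusion is drawn from a list share above that of all genes. The 4 genes with the smallest p were Nfkbiz, Irak3, Ikbkg and Il1r1 for signalling and Lcn2, Gadd45b, Irf1 and Mmp9 for targets. For adhesion they were Selp, Itgb2, Itga4 and Selplg. All other list genes below are named for their role, after their values were seen.

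Among 44 measured signalling genes, 22 had positive and 22 negative differences, the median being 0.01. At an unadjusted p under 0.05 there were 6 higher and 2 lower, 18.2% of the list. Nfkbiz, encoding the nuclear cofactor I kappa B zeta, differed by 0.51 (SE 0.15, limma adjusted p = 0.306), from 3.73, 4.08 and 3.76 on the knockout arrays and 3.46, 3.25 and 3.32 on the control arrays. Irak3, encoding a kinase-like brake on Toll-like receptor signalling, differed by 0.58 (SE 0.19, adjusted p = 0.359). At the receptors, the interleukin 1 receptor gene Il1r1 differed by 0.39 (SE 0.14, adjusted p = 0.387) and the tumour necrosis factor receptor gene Tnfrsf1a by 0.45 (SE 0.17, adjusted p = 0.398). Il1r1 lay at 6.89, 6.59 and 6.79 on the knockout arrays, against 6.47, 6.39 and 6.25 on the control arrays. Tnfrsf1a lay at 7.25, 7.73 and 7.24 on the knockout arrays, against 6.86, 6.91 and 7.09 on the control arrays. Knockout values lay above all control values for both receptor genes, as for 6 of the 44 genes of the list and 7.61% of all genes. The receptor gene Tlr2 also had all knockout values above the control values, with a difference of 0.34 (SE 0.14, adjusted p = 0.432). The remaining receptor genes of the list overlapped between the groups. Their differences were -0.14 (SE 0.15) for Tnfrsf1b, -0.05 (SE 0.13) for Il1rap, 0.06 (SE 0.14) for Ltbr, 0.37 (SE 0.23) for Cd40 and 0.23 (SE 0.17) for the dim Tlr4.

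The receptor adaptor gene Myd88 differed by 0.65 (SE 0.24, adjusted p = 0.398), with knockout replicate 1 (6.10) below control replicate 3 (6.22). Ikbkg, which encodes the scaffold of the kinase complex that marks I kappa B proteins for destruction, lay lower. It was at 5.005, 4.86 and 4.91 on the knockout arrays, against 5.24, 5.38 and 5.26 on the control arrays, a difference of -0.37 (SE 0.12, limma adjusted p = 0.366). The catalytic subunit gene of the same complex, Ikbkb, differed by 0.02 (SE 0.13). Among other inhibitors, the deubiquitinase gene Otulin lay at 5.07, 5.16 and 5.14 on the knockout arrays, against 5.50, 5.47 and 5.38 on the control arrays. Its groups did not overlap, and the difference was -0.32 (SE 0.12, limma adjusted p = 0.407). Cyld, another deubiquitinase gene, also had all knockout values below the control values, with a difference of -0.25 (SE 0.14, adjusted p = 0.568). Knockout values lay entirely below the control values in 3 of the 44 genes of the list, against 9.14% of all genes. The inhibitor genes Tnip1 and Tnip2 overlapped between the groups, with positive differences of 0.26 (SE 0.22) and 0.18 (SE 0.14). Of the I kappa B genes, Nfkbib differed by 0.08 (SE 0.13) and Nfkbie by -0.08 (SE 0.19), and the subunit gene Rel differed by 0.08 (SE 0.21).

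Other target genes did not share a direction. Of 39 measured, 25 had positive and 14 negative differences with a median of 0.14, and 15.4% lay at an unadjusted p under 0.05, 4 higher and 2 lower. Lcn2, encoding the siderophore-binding protein lipocalin 2, lay at 9.83, 10.4 and 8.79 on the knockout arrays, against 5.45, 5.62 and 6.83 on the control arrays, a difference of 3.70 (SE 0.44, limma adjusted p = 0.0674). It was the only gene of the 3 lists to pass under any alternative fit. Gadd45b, encoding a stress-response protein, lay at 4.99, 5.31 and 5.62 on the knockout arrays, against 6.41, 5.80 and 6.44 on the control arrays, a difference of -0.91 (SE 0.22, adjusted p = 0.248). Irf1, an interferon-response transcription factor gene, differed by 0.48 (SE 0.13, adjusted p = 0.299) and the gelatinase gene Mmp9 by 0.46 (SE 0.15, adjusted p = 0.346). Cytokine and chemokine genes of the list gave differences of either sign. Ccl20 differed by -0.40 (SE 0.16, adjusted p = 0.439), Il1rn by 0.56 (SE 0.28), Ccl4 by 0.42 (SE 0.25) and Cxcl10 by 0.30 (SE 0.22), all with overlapping groups. The dim Ccl2 differed by -0.07 (SE 0.13), Cxcl1 by 0.18 (SE 0.14) and Cxcl2 by -0.07 (SE 0.17). Il6, at 1.25 to 1.83 on all 6 arrays, differed by 0.22 (SE 0.17).

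Among 38 other adhesion molecule genes, 26 had positive and 12 negative differences with a median of 0.07. At an unadjusted p under 0.05 there were 5 higher and 0 lower, 13.2% of the list. Selp, encoding P-selectin of platelets and endothelium, lay at 3.97, 4.28 and 4.39 on the knockout arrays, against 3.71, 3.57 and 3.73 on the control arrays, a difference of 0.54 (SE 0.15, limma adjusted p = 0.300). Its leukocyte ligand gene Selplg differed by 0.68 (SE 0.26, adjusted p = 0.413), with overlapping groups. Cdh5, encoding the junction protein VE-cadherin and also counted among the endothelial markers below, differed by 0.54 (SE 0.22, adjusted p = 0.429). E-selectin's gene Sele was dim and differed by -0.12 (SE 0.14), and the constitutive Icam2 differed by -0.02 (SE 0.12).

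The leukocyte partners of the adhesion molecules were uneven. Itgb2, encoding the beta 2 chain shared by the ICAM1-binding integrins, lay at 4.86, 5.58 and 5.16 on the knockout arrays, against 4.72, 4.42 and 4.40 on the control arrays. The groups did not overlap, and the difference was 0.69 (SE 0.19, limma adjusted p = 0.306). Of its alpha chains, Itgal differed by 0.25 (SE 0.21) and the dim Itgam by 0.02 (SE 0.19). Itga4, encoding the alpha chain of the VCAM1-binding integrin, lay at 3.60, 4.44 and 3.95 on the knockout arrays, against 3.57, 3.35 and 3.04 on the control arrays. Its difference was 0.68 (SE 0.22, adjusted p = 0.359), while the beta chain gene Itgb1, made by most cells, differed by -0.08 (SE 0.12). For Itgb1 all knockout values lay below the control values. Of the 38 other adhesion genes, 5 lay entirely above the control values and 1 entirely below, against 7.61% and 9.14% of all genes.

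**Figure D4:**
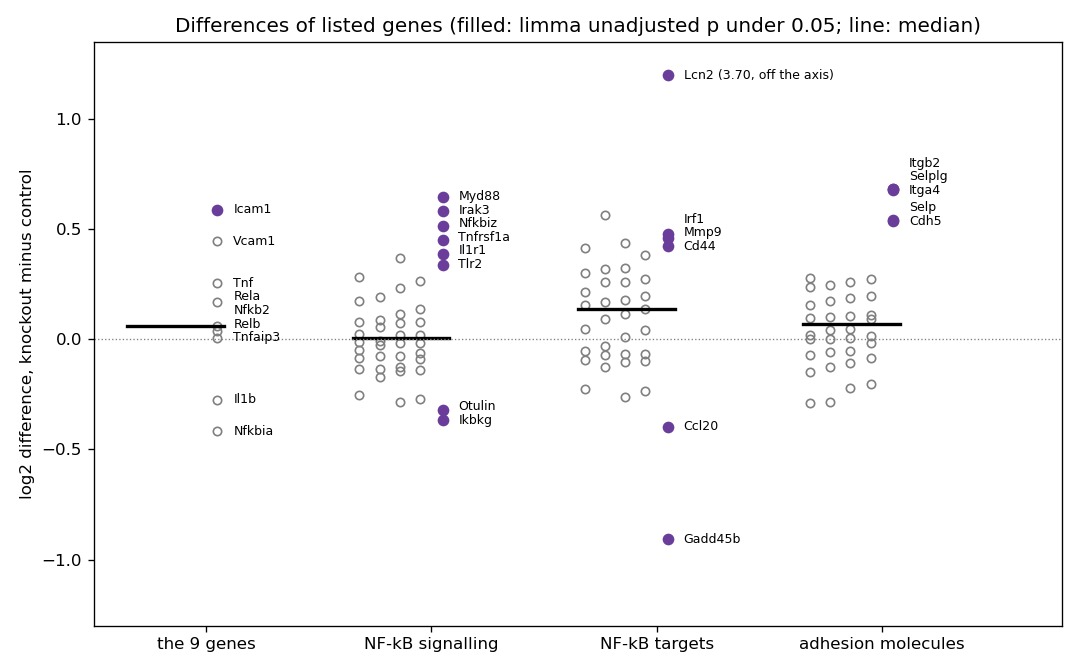
Log2 difference, knockout minus control (vertical axis), of the 9 genes and of 44 signalling, 39 target and 38 adhesion genes; each point is a gene, filled where the limma unadjusted p was under 0.05, and black lines are medians. Lcn2 (3.70) is drawn at the edge; the medians are 0.06, 0.01, 0.14 and 0.07.

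Macrophage, endothelial, neutrophil and lymphocyte marker means were above all control means on every knockout array, while the hepatocyte mean was below them. Most of the neutrophil and lymphocyte markers were dim. In whole liver, more cells of a type and more RNA per cell cannot be told apart. Over all genes, 50.19% had positive differences and 5.06% lay higher at a limma unadjusted p under 0.05. All knockout values lay above the control values in 7.61% of all genes. All 18 macrophage and Kupffer cell markers had positive differences, 13 of them (72.2%) at an unadjusted p under 0.05, and only Ccr2 was dim. Their mean was 5.83, 6.57 and 5.53 on the knockout arrays, against 5.30, 5.17 and 5.18 on the control arrays. Of 12 sinusoidal endothelial markers 11 had positive differences, 3 of them at an unadjusted p under 0.05, and 5 had all knockout values above the control values. Their means were 6.42, 7.10 and 6.53 on the knockout arrays, against 6.38, 6.38 and 6.39 on the control arrays. Knockout replicate 2 was the highest array for the macrophage, endothelial and stellate cell means, and also for Icam1, Vcam1, Itgb2 and Itga4. Vcam1 was lower on knockout replicate 1 than on the other knockout arrays, as the endothelial mean was, while the macrophage mean of knockout replicate 1 was the second highest of all arrays. Knockout replicate 3 held the lowest macrophage mean of the knockout group, while its Vcam1 was the second highest of all arrays.

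Of 12 stellate cell markers 11 had positive differences, 2 of them at an unadjusted p under 0.05, where 5.06% of all genes lay higher. The list mean was 5.53 to 6.08 on the knockout arrays and 5.38 to 5.61 on the control arrays, with overlap. Of 12 neutrophil markers 8 were dim, including S100a8, S100a9 and Ly6g, and the list mean was 2.71 to 2.84 on the knockout arrays and 2.53 to 2.61 on the control arrays. Of 11 lymphocyte markers 7 were dim, with means of 3.19 to 3.21 on the knockout arrays and 3.03 to 3.17 on the control arrays. Of 6 cholangiocyte markers 3 were dim, with means of 3.01 to 3.47 on the knockout arrays and 2.96 to 3.07 on the control arrays. The part of any of these cells in the values of Icam1, Vcam1 and Nfkbia was not tested.

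**Figure D5:**
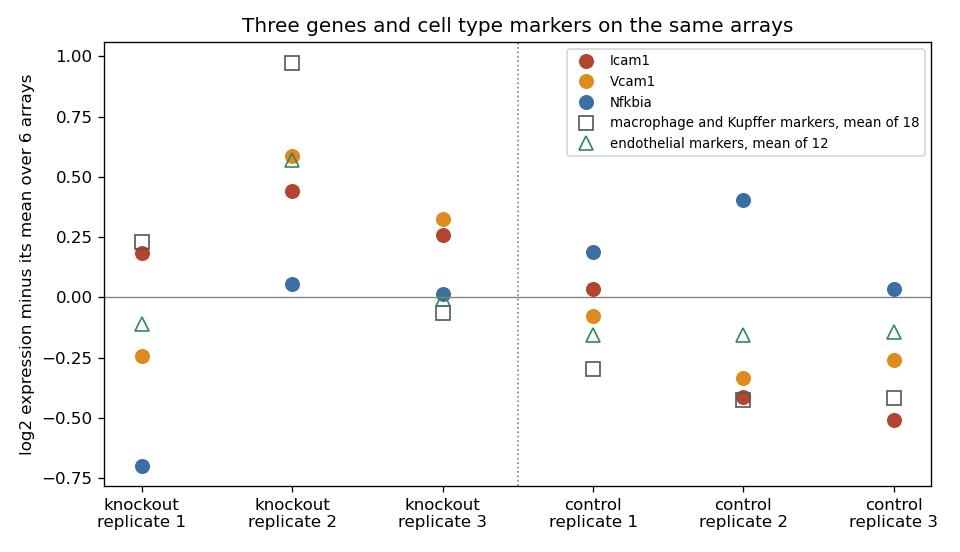
Log2 expression minus its own mean over the 6 arrays (vertical axis) of Icam1, Vcam1 and Nfkbia (filled circles), and of the mean of 18 macrophage and Kupffer markers (squares) and 12 endothelial markers (triangles), on each array. Knockout replicate 2 is highest for Icam1, Vcam1 and both marker means, and knockout replicate 1 is lowest for Nfkbia.

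Genes with the most similar profiles were sought among the brighter genes tested, those at or above the median mean level, by the root mean square distance between gene-centred values over the 6 arrays. The genes nearest to Icam1 were Irak3 (distance 0.091), AW112010 (0.102) and the sialyltransferase gene St6gal1 (0.107), where Icam1 itself varied by 0.347 about its mean. The genes nearest to Vcam1 were Tlr3, encoding a receptor for double-stranded RNA (0.045), Klhl6 (0.075) and Csf2rb2, encoding a cytokine receptor chain (0.077), where Vcam1 varied by 0.340. Tlr3 lay at 4.46, 5.33 and 5.01 on the knockout arrays, against 4.70, 4.48 and 4.45 on the control arrays, so its knockout replicate 1 was also within the control range. The genes nearest to Nfkbia were 9130401M01Rik (0.064), Asb3 (0.064) and Rbmxl1 (0.072), and Nfkbia varied by 0.340. With only 6 arrays and many genes searched, close profiles may be found for many genes. Nearest distances were computed for Icam1, Vcam1 and Nfkbia only, so these distances are descriptions.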

How the data were processed

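Total liver RNA of 6 samples was hybridised, 1 array each, after biotin labelling by the whole-transcript protocol, per the labels' protocols. Values were made with RMA and Affymetrix Expression Console 1.4.1, per the submitters' processing notes. The deposited table holds the authors' log2 values for 41345 probe sets. RMA sets arrays to a common distribution, so a shift shared by most transcripts would not be visible. Of the probe sets, 23521 had 1 gene symbol in the platform annotation, 1814 had several and 16010 were not listed. The brightest probe set per gene left 22180 genes. The small number of arrays limits precision.

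Groups were compared with lmFit and eBayes (limma 3.58.1, R 4.3.3), 2-sided, with Benjamini-Hochberg adjustment over all 22180 genes and a threshold of 0.05. The genes named by rule are the 10 members, the 4 smallest p of each pathway list, and the 3 nearest profiles of Icam1, Vcam1 and Nfkbia. Other pathway list genes were named for their role, after their values were seen. Members and lists were chosen with earlier results of these data known. Listed genes with no matching probe set were not analysed here. The fit was checked on simulated data. The simulated shifts were larger than any member difference, so this check does not cover differences of that size. Alternatives were a dim filter, 2 normalizations, 2 variance priors, other probe set choices, a replicate block and leaving out each array.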

Additional observations from a re-analysis of the deposited data

How the results depend on the processing

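No measured member passed under any of the 14 alternatives. The count of called genes was 0 with all arrays, 15 with the dim filter, 25 with an intensity trend and 1 with the replicate block, and 0 to 66 with an array left out. It was 66 without knockout replicate 3 and 3 without control replicate 3. Of the pathway lists, 1 gene, Lcn2, was called with the dim filter (adjusted p = 0.0351) and with an intensity trend (0.0251), and 0 to 1 genes with an array left out, Lcn2 being the gene called without knockout replicate 3 and without control replicate 3. The dim filter left fewer genes to adjust over and also changed the standard errors. The cause of these changes in counts was not tested.

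Icam1 stayed positive under its 14 alternatives, at 0.48 to 0.75, with adjusted p of 0.202 to 0.697. Directions also held for Rela, Nfkbia, Vcam1, Tnf and Il1b; Tnf and Il1b had 13 alternatives because the dim filter removed them. Signs turned for Nfkb2 without knockout replicate 2 and without control replicate 1 (range with an array left out -0.1826 to 0.3292), for Relb without replicate 3 of either group (-0.04843 to 0.1234), and for Tnfaip3 without knockout replicate 1, control replicate 1 or control replicate 3 (-0.0881 to 0.08651). Deviations of same-numbered arrays correlated at 0.01, 0.05 and 0.02. Knockout replicates 1 and 2 correlated best with the same-numbered control, and knockout replicate 3 with control replicate 1 (0.03). These small correlations do not decide whether the numbers are pairs. The labels do not state pairs, so the numbers were not taken as pairs. The replicate block called 0 members and 0 listed genes.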
